A study of Mus musculus with 8 samples.

Results

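The enzymes described here are the named genes of 10 families that oxidise, reduce, hydrolyse or conjugate foreign and endogenous compounds or remove oxidants, together with catalase. They were chosen by symbol, with earlier results of these data known. They are the cytochromes P450 (Cyp), carboxylesterases (Ces), aldo-keto reductases (Akr), aldehyde dehydrogenases (Aldh), quinone reductases (Nqo), glutathione S-transferases (Gst), UDP-glucuronosyltransferases (Ugt), glutathione peroxidases (Gpx), peroxiredoxins (Prdx), superoxide dismutases (Sod) and Cat. The rule left out Cyp2f2, Cyp4b1, Gsta3 and Ces1f and gave 82 of the 8741 named genes, of which all 82 had a value in every mouse and were tested. They comprised 25 Cyp, 5 Ces, 7 Akr, 12 Aldh, 1 Nqo, 16 Gst, 2 Ugt, 7 Gpx, 3 Prdx and 3 Sod genes and Cat.

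The mutant animals were 4 male mice transgenic for Fra-2 (gene Fosl2), an AP-1 transcription factor, aged 14 weeks and on a C57BL6 x CBA background. The comparison was between their lung RNA and that of 4 wild-type males, also 14 weeks old and of that background, mixed into 1 pool. Each transgenic mouse was hybridised on 2 two-colour arrays with the dyes exchanged, which gave 8 arrays. The labels do not name the promoter that drives the transgene, and mice of other ages were not analysed here. Values are log2 ratios of transgenic over pool, as the mean over mice ± SD with n = 4; a value of -1 is a level 2-fold lower than the pool. That direction is likely only, since it rests on the labels, which put the transgenic RNA in the first channel; with the ratio formed the other way, every sign below turns. The pool is 1 control sample, so the spread among wild-type mice is not in any test. Ratios give no level of a gene, so the tissue could not be checked by marker levels, and no probe here is named Fosl2.

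Xenobiotic metabolism is usually described in phases. Phase I enzymes, chiefly the P450s, esterases, reductases and dehydrogenases, introduce or expose a reactive group, and conjugating enzymes such as the glutathione S-transferases and glucuronosyltransferases attach a soluble group to it. Superoxide dismutases turn superoxide into hydrogen peroxide, which catalase, glutathione peroxidases and peroxiredoxins then reduce. In the lung several P450, Gst and Aldh genes are expressed most in airway epithelium, above all in club cells. Many genes of these families are targets of the oxidant-sensing factor Nrf2 or the aryl hydrocarbon receptor.

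The arrays gave 20585 to 20729 usable ratios each with medians between -0.09 and 0.01. The interquartile range was 0.451 to 0.521 on 7 arrays and 0.906 on the array of mouse 4 with its RNA in Cy3, and the 2 arrays of a mouse correlated over probes at 0.685, 0.642, 0.587 and 0.389 in mice 1 to 4. Of the 768 member values 9 were missing. The spots' intensities were not used here, so signal over background is unknown, and the number of mice limits the precision.

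Of the 82 enzymes 24 were lower and 11 higher than the pool at an adjusted p under 0.05 (limma, Benjamini-Hochberg over all 8692 named genes tested), and 47 did not pass. Over all genes tested 18.4% were lower and 13.5% higher, 31.9% in all; among the enzymes these shares were 29.3%, 13.4% and 42.7%. The median log2 ratio was -0.11 over the enzymes and -0.01 over all genes. In size the lower and the higher calls differed. The lower enzymes had ratios between -0.32 and -1.56 with a median of -0.61, and 17 of the 24 were at least 0.5 below 0. The higher enzymes lay between 0.24 and 0.48 with a median of 0.38, and 0 of 11 reached 0.5. Over all genes, 578 of 1598 lower and 420 of 1172 higher calls were at least 0.5 in size. Cyp26b1, Gstm1, Cat and Gsta2 were at least 2-fold lower and no enzyme was 2-fold higher. On all 8 arrays 22 enzymes were below 0, against 16.9% of all genes, and 7 were above 0, against 10.8%. Without mouse 1, 2 or 3 the higher enzymes numbered 5, 6 and 6, against 6.9%, 8.32% and 8.89% of all genes. The lower enzymes then numbered 20, 22 and 23, against 10.9%, 11.4% and 14% of all genes. Without the array of widest spread 13 were higher and 25 lower, against 15.4% and 18.2% of all genes. Mouse 4 was then represented by its Cy5 array alone, so the dyes were not balanced in that setting. In whole lung RNA, fewer cells of a type and less RNA per cell cannot be told apart.

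**Figure D1:**
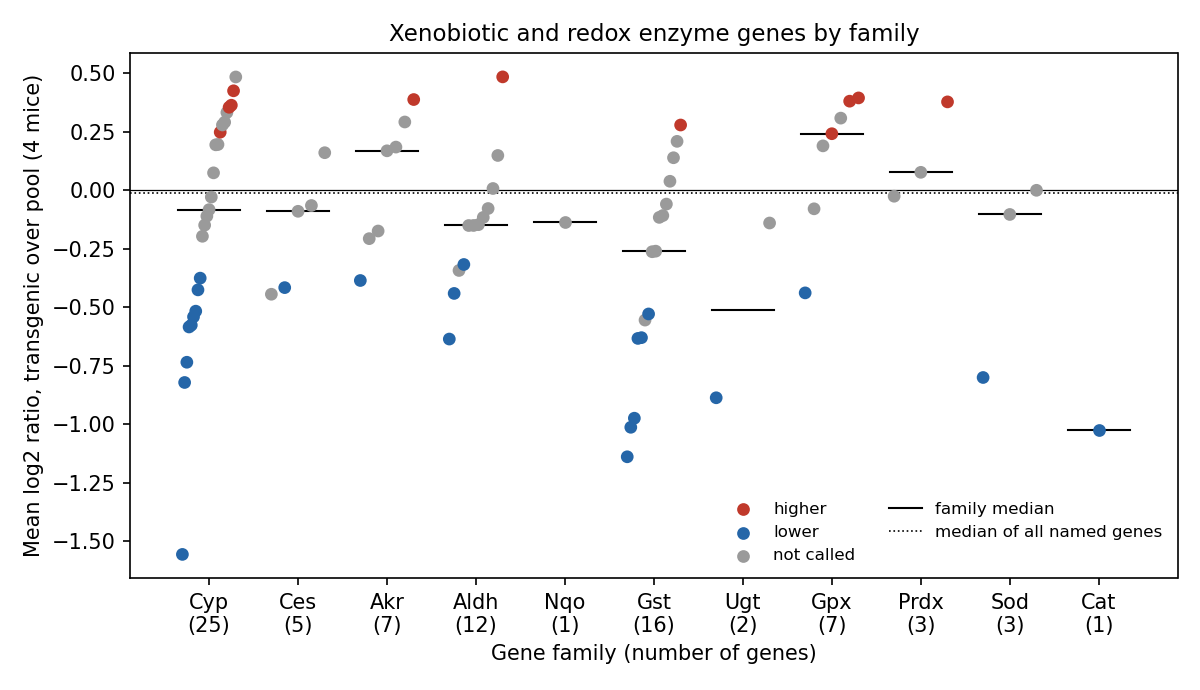
Mean log2 ratio of transgenic over pool (y axis) of each of the 82 enzymes, by family (x axis); each point is 1 gene as the mean of 4 mice, coloured by its call, solid bars are family medians and the dotted line is the median of all named genes. The points reach down to -1.56 and up to 0.48, and Gpx is the family with the most higher calls for its size, 3 of 7, beside 13.5% of all genes.

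Over all genes tested 18.4% were lower and 13.5% higher, and the counts by class and family are to be read beside these shares. Phase I genes, counted here as all members of the Cyp, Ces, Akr, Aldh and Nqo families, made up 50 of the enzymes. Some of them act on endogenous compounds such as steroids and retinoic acid. Of the 50, 14 (28%) were lower and 6 (12%) higher, with a median of -0.11. The 18 conjugating genes held 7 lower (38.9%) and 1 higher (5.56%), with a median of -0.26. The 14 antioxidant genes held 3 lower (21.4%) and 4 higher (28.6%), with a median of 0.04. Without mouse 1, 2 or 3 Gpx2 was the 1 antioxidant gene called higher, and on the Cy3 arrays alone it was Prdx2. Of all genes 6.9%, 8.32% and 8.89% were higher without these mice, and 7.87% on the Cy3 arrays alone. The Gst family alone had 6 lower (37.5%) and 1 higher (6.25%) of 16, and Cyp had 9 lower (36%) and 4 higher (16%) of 25. Without mouse 1 the Cyp family had 7 lower and 2 higher, beside 10.9% and 6.9% of all genes.

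Promoter sequences are shown for members that carry a short motif of a factor known for these families or of the transgenic factor itself. The 3 motifs were searched on both strands. The antioxidant motif was the core of the antioxidant response element bound by Nrf2 (TGACNNNGC). The xenobiotic motif was that of the xenobiotic response element bound by the aryl hydrocarbon receptor (TNGCGTG). The AP-1 motif was a loose form of the AP-1 site (TGANTCA), which can overlap the antioxidant element. It takes any base in the middle, where the usual site has C or G, and the match in Ugt1a6a has T. In the 250 bases before to 50 after the start, from RefSeq (GRCm38.p6), 69 members had a sequence. The antioxidant motif was in 6 of 69 (8.7%, against 14% of all 27025 genes with a promoter), the xenobiotic motif in 3 (4.35%, against 5.84%) and the AP-1 motif in 10 (14.5%, against 8.97%). Among the 21 lower members with a sequence, 1 held the antioxidant, 1 the xenobiotic and 3 the AP-1 motif (14.3%); among the 8 higher members, 0, 0 and 1 did. The 5 lower members with a motif were Sod1, Gsta2, Ugt1a6a, Cyp3a13 and Aldh1a1, and all 5 are printed. Prdx1, whose ratio was 0.08 ± 0.17 and did not pass (adjusted p = 0.528), is set beside them because an antioxidant and an AP-1 motif overlap in it. Each sequence runs from 250 bases before to 10 after the start, 5′ to 3′ on the gene's strand, with the motif in capitals. They lie at chr16:90220512-90220771 (plus strand, Sod1), chr9:78347136-78347395 (minus, Gsta2), chr1:88134559-88134818 (plus, Ugt1a6a), chr5:137921610-137921869 (minus, Cyp3a13), chr19:20492333-20492592 (plus, Aldh1a1) and chr4:116685349-116685608 (plus, Prdx1).
Sod1, antioxidant motif on the reverse strand: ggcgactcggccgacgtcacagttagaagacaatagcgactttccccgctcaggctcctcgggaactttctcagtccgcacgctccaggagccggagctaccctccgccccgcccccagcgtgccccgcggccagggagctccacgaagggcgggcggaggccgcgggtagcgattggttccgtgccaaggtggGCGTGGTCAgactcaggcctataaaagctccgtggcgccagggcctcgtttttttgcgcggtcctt
Gsta2, xenobiotic motif: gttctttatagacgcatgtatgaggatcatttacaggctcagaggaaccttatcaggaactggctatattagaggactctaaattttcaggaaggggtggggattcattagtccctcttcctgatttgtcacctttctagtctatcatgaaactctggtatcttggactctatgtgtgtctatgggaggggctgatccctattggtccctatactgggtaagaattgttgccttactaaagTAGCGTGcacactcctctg
Ugt1a6a, AP-1 motif: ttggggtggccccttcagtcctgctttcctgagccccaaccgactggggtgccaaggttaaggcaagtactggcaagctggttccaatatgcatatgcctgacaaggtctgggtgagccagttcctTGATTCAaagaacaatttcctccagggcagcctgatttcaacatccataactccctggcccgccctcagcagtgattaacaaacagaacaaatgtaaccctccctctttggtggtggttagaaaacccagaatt
Cyp3a13, AP-1 motif at both places: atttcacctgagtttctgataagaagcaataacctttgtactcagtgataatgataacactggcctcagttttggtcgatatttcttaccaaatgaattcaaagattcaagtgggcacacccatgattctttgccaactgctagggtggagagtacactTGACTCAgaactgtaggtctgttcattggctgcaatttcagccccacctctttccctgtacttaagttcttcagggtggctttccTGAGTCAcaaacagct
Aldh1a1, AP-1 motif: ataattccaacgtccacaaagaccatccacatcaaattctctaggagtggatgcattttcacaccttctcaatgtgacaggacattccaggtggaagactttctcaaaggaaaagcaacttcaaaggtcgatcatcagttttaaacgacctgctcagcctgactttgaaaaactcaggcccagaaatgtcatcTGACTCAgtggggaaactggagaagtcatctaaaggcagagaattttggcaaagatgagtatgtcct
Prdx1, AP-1 motif, then the overlapping pair: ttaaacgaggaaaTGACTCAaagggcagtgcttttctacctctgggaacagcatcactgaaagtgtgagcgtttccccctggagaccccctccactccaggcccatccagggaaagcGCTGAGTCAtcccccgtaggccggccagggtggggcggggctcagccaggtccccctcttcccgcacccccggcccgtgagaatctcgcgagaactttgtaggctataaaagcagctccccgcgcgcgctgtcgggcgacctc
A match is a description of the letters in this window and no measure of binding.

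Among the P450s the lowest value of all 82 enzymes was that of Cyp26b1, which breaks down retinoic acid. Its ratios were -1.62, -1.17, -1.43 and -2.0 in mice 1 to 4, below -1 in every mouse. The mean of -1.56 ± 0.35 is a level 2.94-fold lower than the pool (adjusted p = 0.000864). Cyp27a1, a mitochondrial sterol hydroxylase, was at -0.81, -0.56, -0.58 and -0.99, and its mean of -0.74 ± 0.20 passed (adjusted p = 0.00254). Both were called lower under each of the 15 alternative settings.

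The Cyp2d genes, drug and amine oxidases of 1 gene cluster, were the P450 group with the most lower calls: 4 of 5, with a median of -0.54. Cyp2d10 was at -1.35 and -1.37 in mice 1 and 3 and at -0.30 and -0.27 in mice 2 and 4, and its mean was -0.82 ± 0.62 (adjusted p = 0.0243). It separated the mice into a low and a high pair, and without mouse 1 or 3 its call was lost (adjusted p = 0.0841 and 0.0688). Cyp2d22 lay more evenly, at -0.58, -0.38, -0.69 and -0.65, with a mean of -0.58 ± 0.14 (adjusted p = 0.00338). Cyp2d9 was at -0.38 ± 0.09 (adjusted p = 0.01), and without mouse 1 it did not pass (adjusted p = 0.0512). Cyp2d26 was at -0.54 ± 0.21 (adjusted p = 0.00701), but its 2 probes differed: 1 was at -0.21 and not called, the other at -0.88 and lower. With that first probe alone Cyp2d26 was not called (adjusted p = 0.339). Cyp2d12 was at -0.20 ± 0.27 and did not pass (adjusted p = 0.2). Without mouse 1 the lower Cyp2d genes numbered 2, beside 10.9% of all genes. These genes are close copies, so part of a probe's signal can come from a neighbour in the family.

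Other lower P450s were Cyp3a13, a member of the drug-metabolising Cyp3a group, at -0.64, -0.74, -0.37 and -0.59, all 4 mice within a narrow span, with a mean of -0.58 ± 0.16 (adjusted p = 0.00379). Cyp2j9, of a group that makes epoxides of arachidonic acid, was at -0.11, -0.75, -0.35 and -0.86 (mean -0.52 ± 0.35, adjusted p = 0.0235). Cyp39a1, an oxysterol hydroxylase, was at -0.10, -0.79, -0.21 and -0.61 (mean -0.43 ± 0.33, adjusted p = 0.0376). In both of these genes mice 2 and 4, not 1 and 3, were the lowest, and both lost their call without mouse 2 or without mouse 4. On the Cy3 arrays alone Cyp2j9 was not called, and on the Cy5 arrays alone Cyp39a1 was not. Cyp3a11, a main drug oxidase of mouse liver, was at 0.33 ± 0.38 and did not pass (adjusted p = 0.106).

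Of the 4 higher P450s, 2 belong to steroid synthesis. Cyp11a1, which cleaves the side chain of cholesterol, was at 0.53, 0.23, 0.29 and 0.41, and its mean was 0.36 ± 0.13 (adjusted p = 0.0145). Cyp17a1, which hydroxylates and cleaves pregnane steroids, was at 0.19, 0.56, 0.33 and 0.34, with a mean of 0.35 ± 0.15 (adjusted p = 0.0184). Both were above 0 on all 8 arrays, but Cyp11a1 lost its call without mouse 1. Cyp17a1 lost its call without mouse 2 or 3 and on the Cy3 arrays alone. Cyp21a1, also of steroid synthesis, was at -0.03 ± 0.17 and was not called (limma, adjusted p = 0.8225). Cyp2c70, a bile acid hydroxylase of mouse liver, was at 0.25, 0.47, 0.41 and 0.57 (mean 0.42 ± 0.13, adjusted p = 0.00887) and was called under all 15 settings. Cyp4f13, of a group that hydroxylates fatty acids, was at 0.25 ± 0.04 (adjusted p = 0.0319). It was not called without mouse 1, 2 or 3, nor on the Cy3 arrays alone. The Cyp4 group as a whole had a median of 0.19, with this 1 higher and 0 lower of 5. The highest P450 by mean did not pass: Cyp2s1, an extrahepatic P450 of epithelia, was at 0.06, 1.15, -0.22 and 0.94 (mean 0.48 ± 0.66, adjusted p = 0.136), high in mice 2 and 4 only.

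Of the carboxylesterases, which hydrolyse esters and amides, Ces2g alone was lower, at -0.55, -0.19, -0.46 and -0.47 (mean -0.42 ± 0.16, adjusted p = 0.0109), and without mouse 1 it did not pass (adjusted p = 0.0542). Ces1c had the lowest family mean at -0.44 ± 0.42 and did not pass (adjusted p = 0.0612), and Ces1e had the highest at 0.16 ± 0.67 (adjusted p = 0.611). Ces2a and Ces3b were at -0.09 and -0.07, and neither was called.

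Akr1c18 and Akr1c21, hydroxysteroid dehydrogenases from 1 gene cluster, were called in opposite directions. Akr1c18, which inactivates progesterone, was at -0.43, -0.32, -0.33 and -0.46 (mean -0.39 ± 0.07, adjusted p = 0.00814). Akr1c21 was at 0.47, 0.29, 0.40 and 0.38 (mean 0.39 ± 0.07, adjusted p = 0.00825) and was not called on the Cy3 arrays alone. The mice did not overlap between these genes, and each gene varied little between mice. The other 5 Akr genes lay between -0.21 and 0.29 and did not pass.

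The aldehyde dehydrogenases had 3 lower and 1 higher of 12. Aldh1a1, which makes retinoic acid from retinal, was at -1.16, -0.03, -1.10 and -0.26, low in mice 1 and 3 and near 0 in mouse 2. Its mean of -0.64 ± 0.58 had the largest adjusted p of the lower calls (0.046, limma) and was called in 6 of 15 settings. Aldh7a1, an enzyme of lysine breakdown, was at -0.44 ± 0.18 (adjusted p = 0.011) and was not called on the Cy5 arrays alone (adjusted p = 0.0654). Aldh5a1, which oxidises succinic semialdehyde, was at -0.32 ± 0.07 (adjusted p = 0.0157). It lost its call without mouse 1 or 2 and on the Cy5 arrays alone. Aldh3a1, which oxidises medium-chain aldehydes, was the highest of all 82 by mean: 0.65, 0.32, 0.57 and 0.40, above 0 on all 8 arrays, with a mean of 0.48 ± 0.15 (adjusted p = 0.00624). Its chromosomal neighbour Aldh3a2 was at -0.34 ± 0.30 and did not pass (adjusted p = 0.062). Mitochondrial Aldh2 was at -0.15 ± 0.15 (adjusted p = 0.197). The quinone reductase gene Nqo2 was at -0.13 ± 0.10 and was not called (adjusted p = 0.203).

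The glutathione S-transferases showed the largest lower values among the conjugating enzymes, and these lay in the mu and alpha classes. Gstm1 was at -1.56, -0.53, -1.58 and -0.88, and its mean of -1.14 ± 0.52 is 2.20-fold lower than the pool (adjusted p = 0.00488). Gstm3 was at -1.40 in its lowest mouse, mouse 3, and at -0.51 in its highest, mouse 2, with a mean of -0.97 ± 0.46 (adjusted p = 0.00553). Gstm2 ranged from -0.99 in mouse 3 to -0.18 in mouse 2, with a mean of -0.63 ± 0.35 (adjusted p = 0.0116). The fourth mu gene, Gstm5, which lies in the same cluster, was at -0.14, -0.46, 0.12 and -0.57 (mean -0.26 ± 0.32, adjusted p = 0.138) and did not share their order over mice: mouse 3, the lowest for the other mu genes, was its highest. The mu genes are close copies, and how far their probes share signal was not tested.

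Of the alpha class, whose products also reduce lipid peroxides, Gsta2 was at -1.38, -0.63, -1.47 and -0.57, all 4 mice below -0.5, with a mean of -1.01 ± 0.48 (adjusted p = 0.00558). Gsta4, which conjugates hydroxynonenal, was at -0.87, 0.09, -1.19 and -0.25, and its mean of -0.56 ± 0.58 did not pass (adjusted p = 0.0713). Its first probe was at -0.70 and called lower, the second at -0.41 and not called. The gene was called lower on the Cy3 arrays alone but not on the Cy5 arrays alone. Gstk1, the kappa enzyme of mitochondria and peroxisomes, was at -0.61, -0.32, -0.93 and -0.68 (mean -0.63 ± 0.25, adjusted p = 0.00553). Gstz1, which acts in tyrosine breakdown, was at -0.53 ± 0.18 (adjusted p = 0.00604), and both of its probes were lower, at -0.39 and -0.67. All 6 lower Gst genes kept their call under each of the 15 settings.

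The theta class, 4 genes of another cluster, had no lower call. Gstt2 was higher at 0.39, 0.39, 0.17 and 0.15 (mean 0.28 ± 0.13, adjusted p = 0.0354), but not without mouse 1, 2 or 3, nor on the Cy3 arrays alone. Gstt1 was at -0.26 ± 0.16 (adjusted p = 0.0523), and Gstt3 and Gstt4 were at -0.12 and 0.14. Gstp1, the pi enzyme, was at -0.11 ± 0.20 and was not called. The omega gene Gsto1 has 3 probes that disagree, at -0.39 (lower), 0.18 and 0.84, and its mean of 0.21 ± 0.35 did not pass (adjusted p = 0.258); the first probe alone gives -0.39, of the opposite sign.

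Of the glucuronosyltransferases Ugt1a6a, which conjugates planar phenols, was at -1.01, -0.51, -1.31 and -0.72, with a mean of -0.89 ± 0.35 (adjusted p = 0.00396), 1.85-fold lower than the pool. Ugt2b38 was at -0.14 ± 0.33 and did not pass (adjusted p = 0.424). Of the 4 genes left out by the rule 3 were lower: Cyp4b1 was at -1.38 ± 0.32, Gsta3 at -1.23 ± 0.60 and Ces1f at -0.91 ± 0.43, by the same test. Cyp2f2, at -0.93 ± 1.17, was not called (adjusted p = 0.104).

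**Figure D2:**
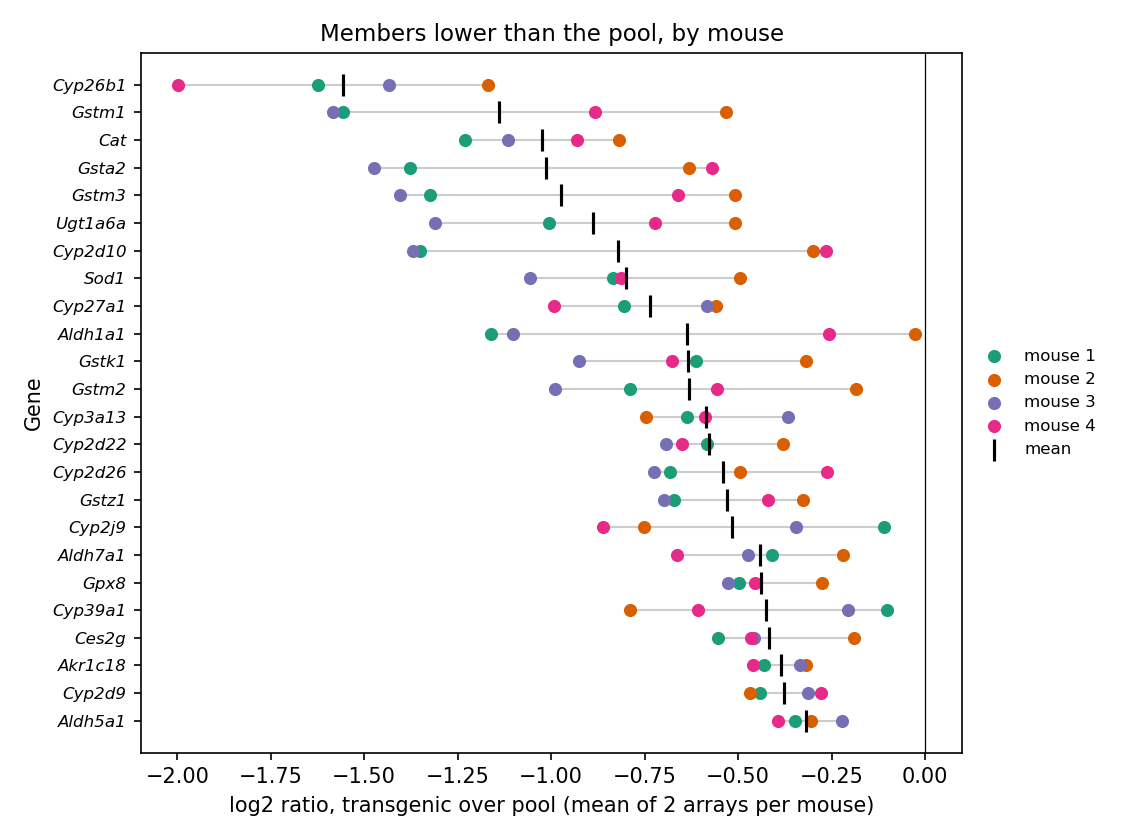
Log2 ratio of transgenic over pool (x axis) for the 24 enzymes called lower (y axis), with 1 point per mouse as the mean of its 2 arrays and a bar at the mean of the 4 mice. Cyp26b1 is farthest from 0, and in Gstm1, Gsta2, Gstm3, Cyp2d10 and Aldh1a1 mice 1 and 3 sit apart to the left of mice 2 and 4.

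Among the antioxidant enzymes, the lower calls were Cat, Sod1 and Gpx8. Catalase was at -1.23, -0.82, -1.11 and -0.93, a narrow span for so low a value, and its mean of -1.02 ± 0.18 is 2.03-fold lower than the pool (adjusted p = 0.000914). The cytosolic superoxide dismutase Sod1 was at -0.84, -0.50, -1.06 and -0.81 (mean -0.80 ± 0.23, adjusted p = 0.00245), with its 2 probes at -0.82 and -0.78. Its promoter, printed above, holds the antioxidant motif. The mitochondrial dismutase Sod2 was at 0.02, 0.07, -0.12 and 0.02, and extracellular Sod3 at -0.10 ± 0.42, and neither was called. Gpx8, a peroxidase of the endoplasmic reticulum, was at -0.50, -0.28, -0.53 and -0.46 (mean -0.44 ± 0.11, adjusted p = 0.00675). All 3 lower antioxidant genes were called in each of the 15 settings.

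The higher antioxidant genes were 3 of the glutathione peroxidases and Prdx2. Gpx2, the epithelial peroxidase, was at 0.40, 0.47, 0.36 and 0.36 (mean 0.39 ± 0.05, adjusted p = 0.00695). Gpx4, which reduces phospholipid peroxides in membranes, was at 0.61, 0.41, 0.34 and 0.16 (mean 0.38 ± 0.19, adjusted p = 0.0189). Gpx1, the main cytosolic peroxidase, was at 0.36, 0.12, 0.30 and 0.18 (mean 0.24 ± 0.11, adjusted p = 0.0474) and was called in 7 of 15 settings. Prdx2, a cytosolic peroxiredoxin, was at 0.59, 0.41, 0.39 and 0.11 (mean 0.38 ± 0.20, adjusted p = 0.0216). Gpx4 and Prdx2 were lowest in mouse 4, and both lost their call without mouse 1, 2 or 3. Prdx1 and Prdx4 were at 0.08 and -0.03, and Gpx5, Gpx6 and Gpx7 at 0.31, 0.19 and -0.08, none of them called.

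Ratios tended to lie higher with the transgenic RNA in Cy5, among the lower calls as well as the higher. The mean of the Cy5 arrays was above that of the Cy3 arrays in 8 of the 11 higher enzymes. The same held for 19 of the 24 lower enzymes and 54 of all 82. How many of all genes had that order was not counted, so it cannot be called particular to these enzymes. The array of widest spread, in Cy3, had a median of -0.09 over all its values. With the transgenic RNA in Cy5 Gpx2 lay between 0.57 and 0.64 on the 4 arrays, and with it in Cy3 between 0.11 and 0.29, so the orientations did not overlap. The means by orientation were 0.60 and 0.19 for Gpx2, 0.56 and 0.20 for Gpx4, and 0.45 and 0.03 for Gpx1. On the Cy3 arrays alone none of these 3 passed (adjusted p = 0.216, 0.329 and 0.874). On the array of widest spread, mouse 4 in Cy3, Gpx4 and Gpx1 were at -0.20 and -0.38, and without that array both were still called. Mouse 4 was then represented by its Cy5 array alone, where they were at 0.52 and 0.75. The dyes were not balanced in that setting, so the kept calls are no check on a dye effect. By orientation Prdx2 was at 0.35 in Cy5 and 0.41 in Cy3, without the gap of the Gpx genes, and Aldh3a1 was at 0.56 and 0.41. Of the 11 higher genes, 7 were not called on the Cy3 arrays alone and 0 were lost on the Cy5 arrays alone; of the 24 lower genes, 1 was lost on the Cy3 and 4 on the Cy5 arrays. Over all genes 16.1% were higher on the Cy5 arrays and 7.87% on the Cy3 arrays, and 16.1% and 14.2% were lower. Every mouse was measured in both orientations, so a constant dye effect on a gene cancels in the means on which the calls were made.

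**Figure D3:**
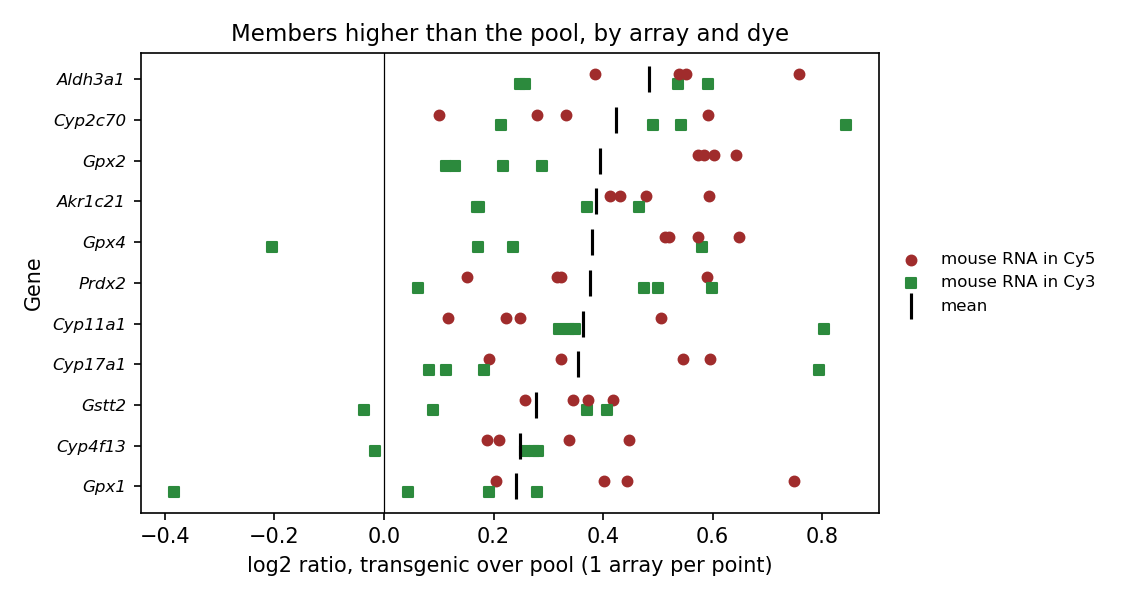
Log2 ratio of transgenic over pool (x axis) on each array for the 11 enzymes called higher (y axis), with 1 point per array, marked by the dye of the transgenic RNA, and a bar at the mean. For Gpx2 the 4 Cy5 points, from 0.57 to 0.64, lie to the right of all 4 Cy3 points, and for Prdx2 the orientations overlap.

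Some enzymes differed between the 4 transgenic mice beyond the differences between arrays of 1 mouse. By limma's F test over the 8 arrays with a term for the dye, 8 of 82 passed, against 2.74% of all 8645 genes tested: Gstm1, Gstm3, Gsta4, Cyp2d10, Cyp2s1, Aldh1a1, Aldh1a7 and Ces1e. Their adjusted p-values lay between 0.0139 for Cyp2d10 and 0.0394 for Gstm3. Aldh1a7, a close relative and chromosomal neighbour of Aldh1a1, was at -0.68, 0.31, -0.66 and 0.44. Ces1e was at -0.29, 0.82, -0.53 and 0.63. In these genes, as in Cyp2s1, mice 1 and 3 lay below 0.1 and mice 2 and 4 above 0.3, so ratios of both signs lay behind means that did not pass.

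In all 8 of these enzymes mice 1 and 3 were the lowest pair, an order picked out after the values were seen. Over the 82 enzymes 28 had that order (34.1%), and over all genes tested 19.8% did. Of the 229 other genes that differed between mice, 106 (46.3%) had it and 101 had the opposite order. These calls, like those of all genes, depended on single mice. Without mouse 2 or 3 no enzyme passed limma's F test, and 0.0578% and 0.0693% of all genes did. At an unadjusted p under 0.05 there were then 15 and 16 enzymes, beside 15.3% and 14.1% of all genes. Without mouse 1 there were 2 enzymes that passed, against 0.693% of all genes, and without mouse 4 there were 10, against 4.26%. Without the array of widest spread the number was 8, against 3.56%.

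Markers of airway cells had the same order over mice. Of 17 listed club cell markers 7 were measured, of which Pon1 and Bpifa1 were lower and Aox3 higher, with medians of -0.76, 0.24, -0.48 and -0.12 in mice 1 to 4. Scgb3a1, a secretoglobin of airway epithelium, was at -0.76, 1.20, -0.48 and 0.85, and Pon1, which is not specific to club cells, at -2.39, -1.03, -2.88 and -1.42. Mice 1 and 3 were the lowest for 5 of these 7 markers, and 3 of 7 differed between mice. Of 20 ciliated cell markers 10 were measured, none called against the pool by limma, with medians of -0.25, 0.28, -0.57 and 0.01. For 8 of these 10 mice 1 and 3 were the lowest, and 4 of 10 differed between mice. Of the 16 measured macrophage markers 11 were higher and 2 lower, with medians of 1.73, 0.65, 1.50 and 0.81, which is the opposite order. Beside these calls against the pool, 18.4% of all genes tested were lower and 13.5% higher. The part of these cell types in the enzymes' values was not tested.

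**Figure D4:**
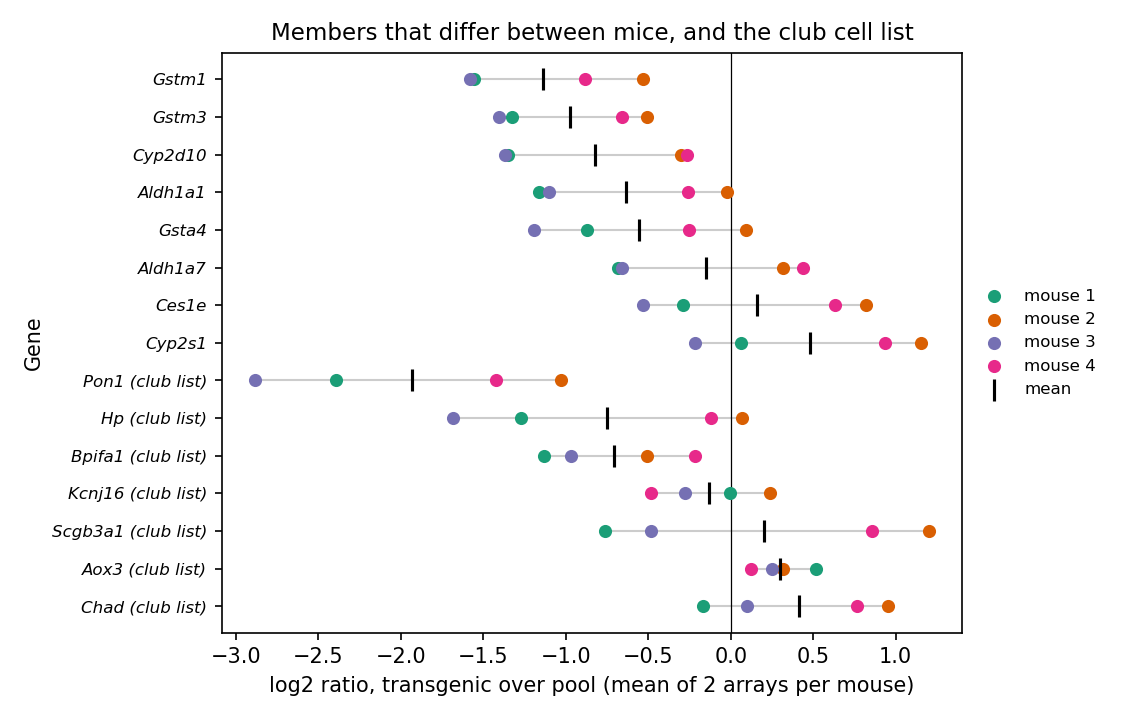
Log2 ratio of transgenic over pool (x axis) for the 8 enzymes that differed between mice and the 7 measured club cell markers (y axis), with 1 point per mouse as the mean of its 2 arrays and a bar at the mean of the 4 mice. In each of the 8 enzymes and in 5 of the 7 markers mice 1 and 3 lie to the left of mice 2 and 4; Kcnj16 and Aox3 are the exceptions.

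Markers of other tissue in the sample were also read. Their counts stand beside 18.4% lower and 13.5% higher of all genes tested. Of 17 measured markers of heart and skeletal muscle 15 were lower, with a median of -0.66, and of 15 fat cell markers 8 were lower and 1 higher, with a median of -0.45. Some enzymes above, Cat and Cyp27a1 among them, are also expressed in fat or macrophages, and the part of these tissues was not tested. Liver cell markers had 3 higher and 2 lower of 15 and a median of 0.09, with albumin at 0.07 ± 0.20. Type 2 alveolar markers had 2 higher and 0 lower of 10, with a median of -0.02. Neutrophil markers had 7 higher and 4 lower of 14, with a median of 0.23. Without mouse 2, 3 or 4 the lower ones numbered 2, beside 11.4%, 14% and 13.2% of all genes. The lists share some genes, so their counts are not independent. Chil3, called higher, is on the macrophage and neutrophil lists, and Arg1, also higher, on the macrophage and liver lists. Fabp4, called lower, is on the macrophage and fat lists. Fibroblast markers had 1 higher and 5 lower of 16, with a median of -0.24, and mice 1 and 3 were the highest for 11 of them. Endothelial markers had 2 higher and 2 lower of 13, and erythroid markers 1 higher and 1 lower of 4. The part of these cells in the enzymes' values was not tested either.

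Genes of the same pathways outside the families were also called in both directions, as were all genes tested, of which 18.4% were lower and 13.5% higher. Of 16 measured Nrf2 targets 4 were higher and 4 lower, with a median of -0.03. The malic enzyme gene Me1 was at 0.60 ± 0.15 (adjusted p = 0.00321) and Gclc, the catalytic subunit of glutathione synthesis, at 0.52 ± 0.10 (adjusted p = 0.00358), while Gclm, the modifier subunit of the same enzyme, was at -0.41 ± 0.10 (adjusted p = 0.00758). The ferritin chains also parted: Ftl1 was at 0.45 ± 0.27 (adjusted p = 0.0215, not called without mouse 1 or 2) and Fth1 at -0.57 ± 0.23 (adjusted p = 0.00683). Ephx1, an epoxide hydrolase, was at -0.55 ± 0.33 (adjusted p = 0.0171, not called without mouse 1 or 3). Heme oxygenase 1, Hmox1, was at -0.03 ± 0.09 and was not called. Without mouse 1 the list had 2 higher and 2 lower genes, beside 6.9% and 10.9% of all genes.

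Of 26 other phase I and conjugating enzymes 9 were lower and 3 higher, with a median of -0.08. The phenol sulfotransferase Sult1a1 was lowest, at -1.22, -1.03, -0.91 and -1.22, close together in all 4 mice, with a mean of -1.09 ± 0.15 (adjusted p = 0.000607). The flavin monooxygenase Fmo1 was at -0.89 ± 0.24 (adjusted p = 0.00183) and the cortisone reductase Hsd11b1 at -0.81 ± 0.37 (adjusted p = 0.00566). Mgst2, a microsomal glutathione transferase, was at 0.49, 1.27, 0.19 and 0.98 (mean 0.73 ± 0.48, adjusted p = 0.0171) and lost its call without mouse 2 or 4. Adh7, a retinol and alcohol dehydrogenase, was at 0.43 ± 0.15 (adjusted p = 0.00976), not called on the Cy5 arrays alone. Aox3, an aldehyde oxidase, was at 0.30 ± 0.16 (adjusted p = 0.0347), not called without mouse 1, 2 or 3.

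Of 31 measured thiol and glutathione redox genes, Gclc and Gclm again among them, 7 were higher and 8 lower, with a median of 0.05. The glutaredoxins Glrx and Glrx5 were at 0.70 ± 0.25 and 0.64 ± 0.04 (adjusted p = 0.00403 and 0.00153), above 0.4 in every mouse. Selenop, the plasma selenium carrier, was at -0.81 ± 0.36 (adjusted p = 0.00553, not called on the Cy3 arrays alone). The methionine sulfoxide reductases Msrb3 and Msrb2 were at -0.76 ± 0.30 and -0.72 ± 0.13 (adjusted p = 0.00468 and 0.00167). Without mouse 2 or 4 the lower genes of this list numbered 4, beside 11.4% and 13.2% of all genes.

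Oxidant-producing genes, chiefly NADPH oxidase subunits, had 3 higher and 0 lower of 13, with a median of 0.00. Cyba, the membrane subunit of the phagocyte oxidase, was at 1.44, 0.55, 0.96 and 0.65 (mean 0.90 ± 0.40, adjusted p = 0.00528), highest in mouse 1. Its GTPase Rac2 was at 0.63 ± 0.37 (adjusted p = 0.0137, not called on the Cy3 arrays alone), and Noxo1, an organiser of the epithelial oxidase, at 0.58 ± 0.12 (adjusted p = 0.00293). Cybb, the catalytic subunit of the phagocyte oxidase, was at 0.24 ± 0.42 and was not called (adjusted p = 0.254).

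Of 20 regulators 5 were higher and 2 lower, with a median of 0.00. Nfe2l2, which encodes Nrf2, was at 0.35, 0.55, 0.14 and 0.29 (mean 0.33 ± 0.17, adjusted p = 0.0253), but was not called without mouse 1, 2 or 4. Keap1, its inhibitor, was at -0.26 ± 0.17 and did not pass (adjusted p = 0.0562). Mafk, a small Maf partner of Nrf2, was at -0.61, -0.51, -0.70 and -0.91 (mean -0.68 ± 0.17, adjusted p = 0.00253), below -0.5 in every mouse. The fatty acid receptor gene Ppard was at 0.52 ± 0.26 (adjusted p = 0.0119) and the xenobiotic receptor gene Nr1i2 at 0.43 ± 0.30 (adjusted p = 0.0295), the latter not called without mouse 1, 2 or 4. The oxysterol receptor gene Nr1h3 was at -0.30 ± 0.12 (adjusted p = 0.0249) and was not called without any 1 of the 4 mice. Without mouse 1, 2 or 4 the list had 1 higher and 1 lower gene. Of all genes 6.9%, 8.32% and 11% were then higher and 10.9%, 11.4% and 13.2% lower.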

How the data were processed

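RNA was measured on 2-colour arrays of lung from 4 transgenic mice, 2 arrays each, against 1 wild-type pool. The authors deposited a log2 ratio for every probe on every array; how they corrected background, normalized and centred is not stated by the labels or files used here, and the log2 scale was inferred from the values. Values beyond 10 in size (498 placeholders) were set to missing, and 706 were missing as deposited. Such filters and the unknown centring can shift small ratios. Per the labels, RNA was labelled indirectly with Cy3 or Cy5.

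Genes were named by adding 11 to the annotation's probe number, at which probes of 1 gene correlated at 0.224 (Spearman, 4802 pairs, against at most 0.0536 at the other of 121 offsets); 475 annotated probes past the last named number stayed unnamed. In 3 of 21 blocks of numbers the offset was weak; 9 member probes lie there, none in a called gene. Probes of a gene, then the 2 arrays of a mouse, were averaged (n = 4), and limma 3.58.1 in R 4.3.3 tested the mean against 0 (lmFit, eBayes, two-sided, Benjamini-Hochberg). The F test between mice used the 8 arrays, with technical error and 3 residual degrees of freedom. Scripts were tested on simulated data. Python 3.11.15 with pandas 2.3.3 made tables and counts.

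Named were called members of unchanging sign over the 8 arrays (10 from either end), the extremes of each family, the 6 smallest F test p-values and up to 3 genes per pathway list and direction; others were chosen after their values were seen. The members and lists were chosen with earlier results of these data known. Alternatives were each mouse left out, each dye alone, centring, quantile normalization, placeholders kept, complete genes, mouse as random block, 1 probe per gene and robust eBayes; those leaving out the widest array or weakly named probes, and counting the excepted genes, were chosen after seeing the data.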

Additional observations from a re-analysis of the deposited data

Results flagged for a closer look

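In 2 of the 82 enzymes 1 mouse stood apart from the other 3 by Dixon's test at the 95% level, which chance alone gives in about 1 of 20 groups. For Nqo2, mouse 4 was at -0.283 and the others between -0.09 and -0.08. For Ces3b, mouse 1 was at -0.03 (-0.0348) and the others between -0.08 and -0.07. Neither gene was called against the pool or between mice.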

How the results depend on the processing

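Of the 35 called enzymes 17 (15 lower, 2 higher) kept their call in all 15 settings, and no called enzyme changed sign. The count of higher enzymes, 11, was 5 on the Cy3 arrays alone and ranged from 5 to 10 with 1 mouse left out; that of lower enzymes, 24, ranged from 20 to 23. Over all genes 7.87% were higher on the Cy3 arrays, and with 1 mouse left out 6.9% to 11% were higher and 10.9% to 14% lower. By probe, 8 were higher and 28 lower (25.7% of all probes were called either way), and with 1 mouse left out 1 to 6 were higher and 14 to 23 lower, each time fewest without mouse 1; of all probes 4.89% to 9.16% were then higher and 7.44% to 10.6% lower, against 11.1% and 14.6% with all mice. The number that differed between mice, 8, was 5 without a dye term and ranged from 0 to 10 with 1 mouse left out, while the share of all genes, 2.74%, was 1.2% and 0.0578% to 4.26%. Gsto1, not called at 0.21, was -0.39 with 1 probe per gene and then lower (adjusted p = 0.0136). With the 4 excepted genes counted, 27 of 86 were lower and 11 higher. No paired analysis was possible because there was 1 group of mice and 1 pool. Every count rests on 4 mice and 1 pool, and signal over background is unknown.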

Other observations

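Of the 12 members with 2 or more measured probes, 4 had probes of opposite sign: Aldh16a1, Ces3b, Gsto1 and Sod2. None had probes called in opposite directions. For Aldh16a1 the probes were at -0.36 (adjusted p = 0.0361 over probes, limma) and 0.20. The second Cyp2d26 probe was at -1.44 and -1.45 on the arrays of mouse 1 and at -0.20 and -0.30 on those of mouse 2.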
